A study of Mus musculus with 21 samples.

Results

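The EphA receptors are the receptors of the ephrin-A ligands. Of this class, 8 genes were examined in purified cells of the mouse inner ear: *Epha2*, *Epha3*, *Epha4*, *Epha5*, *Epha6*, *Epha7*, *Epha8* and *Epha10*, chosen by name out of 52550 genes in the count table. Any other gene of the class was not analysed here, so sums and rankings are over these 8 genes. Gene expression was measured by bulk RNA-seq in 7 groups of 3 libraries each. Of these, 15 libraries were of spiral ganglion neurons (SGNs), the neurons that carry sound signals from cochlear hair cells (HCs) to the brain, collected at 5 ages: before birth at E15.5, then at P1 and P8, around the start of hearing at P14, and at P30. The remaining groups were P12 HCs, taken from both cochlear and vestibular organs, and P8 glial cells of the SGN area. All mice carried the Cre-dependent tdTomato reporter *Rosa26-CAG-loxp-stop-loxp-tdTomato*, and the strain was given as C57BL/6. SGNs came from *ShhCre/+* mice, in which Cre is driven from the *Shh* locus, HCs from *Atoh1-CreER+* mice and glial cells from *vGlut3-iCreER/+* mice, and both CreER lines received tamoxifen in the days after birth. Each library was therefore a pool of cells defined by a driver line and by their tdTomato signal, and SGN subtypes were not kept apart. The pools differed in size, with 1200 cells per HC library, 69 to 195 per SGN library and 86 to 125 per glial library. The study's methods describe HCs as sorted by FACS, and SGNs and glial cells as picked by hand. Comparisons with HCs therefore also differ in cell number and isolation, and the part of these was not tested. The labels present the 3 libraries of a group as separate samples but do not say whether they came from separate mice, so the p-values measure the spread between these libraries, which may be partly technical.

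Eph receptors are receptor tyrosine kinases that bind ephrins on the surface of a neighbouring cell, and the contact signals into both cells. EphA receptors mainly bind ephrin-A ligands, which are held to the membrane by a lipid anchor, and EphA4 also binds ephrin-B ligands. A well known outcome of the contact is the turning away of a growing axon, by which graded EphA and ephrin-A levels order visual maps, and in the cochlea EphA4 and EphA7 have been studied in the growth and sorting of SGN fibers.

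*Epha8* and *Epha10* lie on the same chromosome, were present in every SGN library and had nearly no reads in HCs, so their promoter sequences are shown. They are RefSeq sequences of GRCm38.p6 and run from 250 bases before to 50 bases after a transcript start as RefSeq places it, which for *Epha10* lies inside the gene span that GENCODE gives. All 8 genes had a promoter in that set. The *Epha8* window is chr4:136956767-136957066 on the minus strand and the *Epha10* window is chr4:124881535-124881834 on the plus strand. Capitals mark motifs that were searched by their letters, the CCAAT box on either strand (CCAAT or ATTGG) and the E-box CAGCTG, and no match overlapped another.
Epha8: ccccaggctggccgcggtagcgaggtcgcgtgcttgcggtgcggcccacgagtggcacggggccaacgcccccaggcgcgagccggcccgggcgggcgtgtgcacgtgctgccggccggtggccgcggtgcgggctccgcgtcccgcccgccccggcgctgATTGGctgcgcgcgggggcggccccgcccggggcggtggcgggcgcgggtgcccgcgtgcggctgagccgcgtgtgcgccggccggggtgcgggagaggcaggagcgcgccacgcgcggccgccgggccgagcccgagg
Epha10: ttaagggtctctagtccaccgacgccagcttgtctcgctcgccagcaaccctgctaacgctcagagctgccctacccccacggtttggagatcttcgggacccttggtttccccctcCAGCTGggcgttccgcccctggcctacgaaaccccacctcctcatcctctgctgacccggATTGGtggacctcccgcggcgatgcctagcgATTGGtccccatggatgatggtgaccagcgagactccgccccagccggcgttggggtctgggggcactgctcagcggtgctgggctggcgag
The *Epha8* window held 1 CCAAT box and no CAGCTG, and the *Epha10* window held 2 CCAAT boxes and 1 CAGCTG. Among 32851 promoters of the same length, 37.4% held a CCAAT box and 16.3% held CAGCTG. The G and C content was 84.3% for *Epha8* and 65.3% for *Epha10*, against a median of 52.7% over all promoters.

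The libraries held 10368240 to 37287489 counts assigned to genes. The groups matched their labels by marker genes: the summed TPM (a level scaled to transcript length and to the library) of 8 SGN markers was 587 to 5652 in SGN libraries and 21.5 to 249 in all others, and the sums of 7 HC and 7 glial markers were highest in the HC and the glial libraries. Some libraries held more transcripts of other cells than the rest of their group. Glia replicate 1 had an SGN marker sum of 249 TPM against 46.8 and 21.5 in the other glial libraries. Replicate 1 of SGN P1, P8 and P14 had 176, 165 and 73.8 TPM of 8 connective tissue markers, the highest of their ages, and the HC libraries had 683 to 774 TPM of 4 supporting cell markers. SGN P14 replicate 1 also had 271 TPM of the 7 HC markers, against 47.7 and 109 TPM in replicates 2 and 3. Its supporting cell markers summed to 56.1 TPM, against 0.587 and 28.0 TPM in those libraries. The sum of the 7 glial markers was 502 to 1022 TPM in all P8 SGN libraries, against 57.3 to 131 TPM at P1 and 5.35 to 92.6 TPM at P30. It was 61.0, 114 and 291 TPM in replicates 1, 2 and 3 at E15.5, and 513, 137 and 199 TPM at P14. SGN E15.5 replicate 1 also had 178 TPM of 4 blood markers, against 0 TPM in replicates 2 and 3. In bulk libraries such as these, fewer cells of a type and less RNA per cell cannot be told apart.

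*Epha4* had the highest mean level of the 8 genes in SGNs of every age and in HCs. The gene spans chr1:77367185-77515088 on the minus strand (mm10). At E15.5, SGN replicates 1, 2 and 3 had 32.2, 10.2 and 45.3 TPM. They had 43.7, 47.1 and 69.4 TPM at P1 and 26.3, 64.2 and 21.2 TPM at P8. At P14 the values were 31.4, 18.8 and 23.0 TPM and at P30 13.7, 27.1 and 11.5 TPM. The mean was highest at P1, 53.4 ± 13.95 TPM (SD, n = 3), and lowest at P30, 17.4 ± 8.46 TPM, and the P1 and P30 libraries did not overlap, whereas each age overlapped with the next. *Epha4* differed among the 5 ages (limma-voom moderated F test, adjusted p = 0.0291). Its fitted difference between E15.5 and P30 was -0.45 on the log2 scale (SE 0.30, limma adjusted p = 0.239), with a 95% interval of -1.08 to 0.18.

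*Epha7*, a receptor that also exists in shortened forms that gene counts do not separate, followed *Epha4* in level. It spans chr4:28813131-28967499 on the plus strand. SGN replicates 1, 2 and 3 had 23.1, 8.45 and 44.0 TPM at E15.5 and 38.7, 26.8 and 55.4 TPM at P1. At P8 they had 27.0, 29.6 and 10.5 TPM, at P14 14.6, 5.37 and 20.4 TPM and at P30 7.36, 15.7 and 7.09 TPM. All P1 libraries lay above all P14 and P30 libraries, and each age overlapped with the next. *Epha7* fell from E15.5 to P30 by 1.00 on the log2 scale (SE 0.33, limma adjusted p = 0.0229), at the edge of the 2-fold threshold. Without SGN P30 replicate 1, the fitted difference was -0.81 (adjusted p = 0.109), and without SGN E15.5 replicate 3 it was -0.62, and the call was lost in 5 of 13 alternatives in all.

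**Figure D1:**
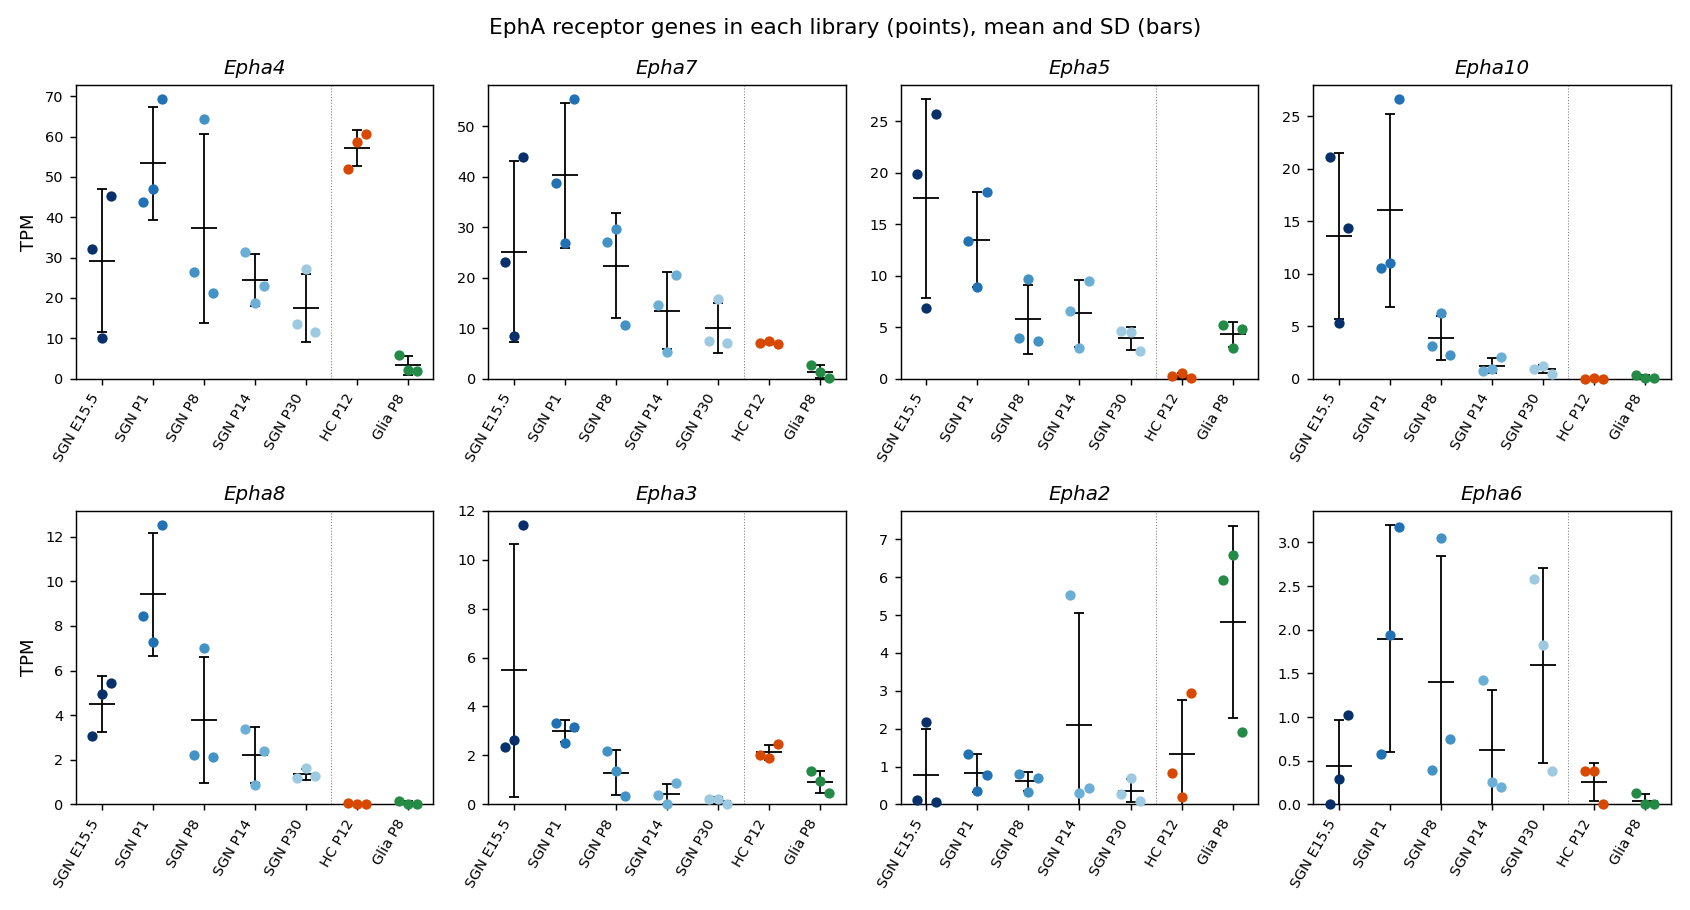
Level of each of the 8 EphA genes in TPM (vertical axes, each panel with its own linear scale from 0) in the 21 libraries of 7 groups (horizontal axes). Points are libraries in the order of their replicate numbers, horizontal lines are means and bars are the SD (n = 3), cut off at 0. *Epha4* is high in SGNs and HCs and low in glial cells, *Epha10* is seen in SGNs, mainly at E15.5 and P1, *Epha8* is highest in SGNs at P1, and *Epha2* is highest on average in glial cells.

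*Epha5*, a receptor known from the ordering of visual and hippocampal connections, fell with age in SGNs. It spans chr5:84054761-84417382 on the minus strand. Replicates 1, 2 and 3 had 19.9, 6.88 and 25.7 TPM at E15.5 and 13.4, 8.93 and 18.1 TPM at P1. They had 3.97, 9.65 and 3.66 TPM at P8, 6.58, 2.94 and 9.49 TPM at P14, and 4.66, 4.504 and 2.65 TPM at P30. The E15.5 libraries, the lowest being replicate 2, all lay above the P30 libraries. From E15.5 to P30 the fitted fall was 3.47-fold (log2 -1.80, SE 0.26, limma adjusted p = 6.05e-05). From P1 to P8 the difference was -0.90 (adjusted p = 0.028), which passed on p but was under 2-fold.

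*Epha10*, an atypical receptor whose kinase domain lacks activity, was mainly seen in SGNs at E15.5 and P1 and fell after P1. It spans chr4:124880899-124917800 on the plus strand. At E15.5, replicates 1, 2 and 3 had 21.2, 5.32 and 14.4 TPM, and at P1 10.5, 11 and 26.7 TPM. At P8 the values were 3.13, 6.21 and 2.27 TPM, at P14 0.760, 0.910 and 2.07 TPM, and at P30 0.919, 1.25 and 0.488 TPM. Each P1 library lay above each P8 library, and each P8 library above each P14 library, while E15.5 and P1 overlapped, as did P14 and P30. The fall from P1 to P8 was 2.98-fold (log2 -1.58, SE 0.34, limma adjusted p = 0.00632), and over the whole span from E15.5 to P30 it was 12.2-fold (log2 -3.60, SE 0.56, adjusted p = 9.3e-05). From P8 to P14 the fitted difference was -1.81 (SE 0.60), with an adjusted p of 0.194 by limma and 0.011 by DESeq2. An antisense gene, *1700125G02Rik*, shares 79 of the 7204 exon bases of *Epha10*, and as the strand setting of the counting is not given, reads there cannot be told apart.

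*Epha8* was highest at P1. It spans chr4:136929419-136956816 on the minus strand. SGN replicates 1, 2 and 3 had 3.07, 4.97 and 5.46 TPM at E15.5 and 8.45, 7.27 and 12.5 TPM at P1. They had 2.19, 7.03 and 2.13 TPM at P8, 3.39, 0.891 and 2.42 TPM at P14, and 1.17, 1.64 and 1.26 TPM at P30. In TPM, the P1 libraries lay above those of all other ages, and P8 replicate 2 came nearest to them. The fitted difference from E15.5 to P1 was 0.51 on the log2 scale (SE 0.33, limma adjusted p = 0.337) and did not pass. *Epha8* fell 2.13-fold from P1 to P8 (log2 -1.09, SE 0.33, limma adjusted p = 0.0409) and 3.08-fold from E15.5 to P30 (log2 -1.62, SE 0.47, adjusted p = 0.0112). The P1 to P8 call was lost in 10 of 14 alternatives, among them the replicate block (adjusted p = 0.0515) and the fit without SGN P1 replicate 1 and SGN P14 replicate 1 (adjusted p = 0.117), and without SGN P30 replicate 1 the E15.5 to P30 call was lost as well (adjusted p = 0.0597).

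*Epha3*, *Epha6* and *Epha2* were low in SGNs. *Epha3*, a receptor that binds ephrin-A5 with high affinity and spans chr16:63543534-63864175, had 2.36, 2.65 and 11.4 TPM at E15.5 and 2.51 to 3.34 TPM at P1. At P30 it had 34, 14 and 0 counts, or 0.236, 0.223 and 0 TPM, all below every E15.5 and P1 library. It fell from E15.5 to P30 (log2 -5.88, SE 1.37, limma adjusted p = 0.00277), and without P30 replicate 3, the library with no reads, the fitted value was -4.25 (adjusted p = 0.0102), while without P30 replicate 1 or 2 it was -7.01 or -6.47. *Epha6*, on chr16:59653483-60605531, lay between 0 and 3.18 TPM in all libraries, and its E15.5 to P30 difference of 3.17 (SE 1.41, adjusted p = 0.0812) did not pass. *Epha6* shares 107 of 5289 exon bases with the antisense gene *Gm9017*. *Epha2*, a receptor mostly known from epithelia, on chr4:141301240-141329384, had 0.0749 to 2.17 TPM in SGN libraries except for 5.52 TPM in P14 replicate 1, and it did not reach the minimum CPM of 1 in all replicates of an age, so that 7 of the 8 genes entered the age fit.

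Step by step, few of these changes were large enough to be called at 2-fold and an adjusted p under 0.05. From E15.5 to P1, 0 of 7 genes were called (2 at an unadjusted p under 0.05, and 0 by edgeR and by DESeq2), against 8.26% of all 15113 genes tested. From P1 to P8, 2 of 7 fell, *Epha8* and *Epha10*, against 7.44% called in either direction and 3.15% called lower among all genes (5.03% lower when scaled by library size). The glial marker sum was higher in all P8 than in all P1 SGN libraries, and glial cells had few reads of both genes; the part of glial transcripts in these falls was not tested. From P8 to P14, 0 of 7 were called (2 at an unadjusted p under 0.05, 0 by edgeR and 1 by DESeq2) against 0.536%, and from P14 to P30 0 of 7 (0 at an unadjusted p under 0.05, and 0 by edgeR and by DESeq2) against 0.0596%. Over the whole span from E15.5 to P30, 5 of 7 genes fell, *Epha3*, *Epha5*, *Epha7*, *Epha8* and *Epha10*, and none rose, against 34.6% of all genes called in either direction and 16.2% called lower (26.3% lower when scaled by library size, with 5 of 7 EphA genes again lower). The median log2 difference was -1.62 over the 7 genes and -0.01 over all genes. The F test over the ages called 6 of 7, all but *Epha6* (adjusted p = 0.264), against 43.9% of all genes. Over 22 alternatives it called 5 or 6. With SGN E15.5 replicate 2 left out, the E15.5 to P30 count was again 5, and *Epha5* was then also called from E15.5 to P1 (log2 -1.01, adjusted p = 0.00458).

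Summed over the 8 genes, the level in SGNs was 96.7 ± 53.4 TPM at E15.5 (SD, n = 3), 138 ± 44.6 TPM at P1 and 76.3 ± 40.9 TPM at P8, and for the later ages P14 and P30 it was 50.8 ± 18.6 and 35.8 ± 15.3 TPM. E15.5 replicate 2 had 40.9 TPM against 102 and 147 in the other libraries of that age. The make-up also changed with age, but not in step with the sum. *Epha4* took 29.1 ± 3.69% at E15.5 and 48.2 ± 3.57% at P30, with no overlap between these ages. Its mean share in between was 39.2% at P1, where the sum was highest, 47.9% at P8 and 50.6% at P14. *Epha10* went from 14.5 ± 5.67% at E15.5 to 2.47 ± 0.461% at P30, again with no overlap. The share of *Epha7* stayed close, 24.4 ± 4.81% at E15.5 and 27.9 ± 3.52% at P30, with overlapping libraries. These shares come from the same values as the levels and were not tested.

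**Figure D2:**
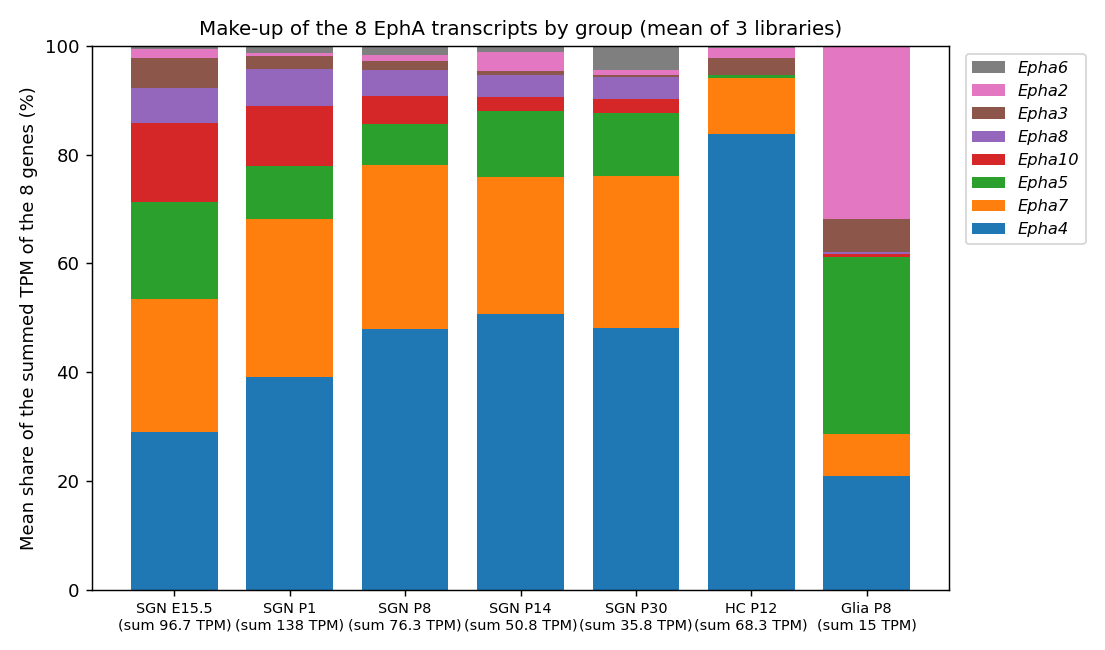
Mean share of each gene in the summed TPM of the 8 EphA genes (vertical axis, percent) in each of the 7 groups (horizontal axis, mean of 3 libraries, with the mean sum in TPM under each bar). *Epha4* and *Epha7* make up most of the SGN bars, *Epha4* alone takes 83.7% in HCs, and *Epha2* and *Epha5* together take most of the glial bar.

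SGN endings contact cochlear HCs, while the HC libraries held vestibular HCs as well, and the 2 kinds were not kept apart. P14 is the SGN age nearest to the P12 of the HCs. The HC libraries summed to 62.6, 69.2 and 73.0 TPM over the 8 genes, overlapping with SGN P14 only through SGN P14 replicate 1 (64.0 TPM) and lying above the SGN P30 libraries. *Epha4* had 52.0, 58.7 and 60.7 TPM in HC replicates 1, 2 and 3, or 83.7 ± 1.02% of the sum, above all SGN P14 libraries in TPM. The HC libraries also had 683 to 774 TPM of 4 supporting cell markers, and the part of such cells in their EphA levels was not tested. In the fit, which scales libraries by TMM, *Epha4* differed between SGN P14 and HCs by -0.03 (95% interval -0.65 to 0.60, limma adjusted p = 0.956). TMM scaling lowered the HC values as a whole, and the *Epha4* mean in HCs was 57.2 TPM before and 41.6 TPM after it. With library size scaling the fitted difference was -0.73 (adjusted p = 0.0563). Scaling by library size also moved the median of all genes in this comparison from -0.04 to -0.75, so *Epha4* stayed close to the median of all genes on both scales.

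*Epha7* had 7.03, 7.42 and 6.84 TPM in HCs, above SGN P14 replicate 2 and below the other SGN P14 libraries. The fitted difference between SGN P14 and HCs was 1.93 (SE 0.56, limma adjusted p = 0.00821), which is under the 4-fold threshold used between cell types. *Epha5* had few reads, with 22, 58 and 4 counts or 0.266, 0.542 and 0.0361 TPM in HCs, and every SGN library of every age lay above these. It was 73.7-fold higher in SGNs at P14 than in HCs (log2 6.20, SE 0.89, adjusted p = 9.43e-06), with log2 values of 6.999 without HC replicate 2 and 5.03 without HC replicate 3. *Epha3* had 2.04, 1.88 and 2.48 TPM in HCs, above all SGN P14 and P30 libraries, with a fitted difference from SGN P14 of -2.00 (SE 1.14, adjusted p = 0.16).

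*Epha8* and *Epha10*, whose promoters are printed above, were separated most. In HCs, *Epha8* had 1, 0 and 0 counts and *Epha10* 0, 1 and 0 counts, 1 of 47243620 counts over the 3 libraries for each gene. Pooled over the libraries of this age, SGN P14 had 358 counts of *Epha8* and 327 of *Epha10* in 69113216. The ratio of the pooled levels was 245 for *Epha8* (95% exact interval 43.6 to 9692) and 224 for *Epha10* (39.8 to 8855), and these intervals cover counting error only. At P30, where SGN levels were lowest, the ratios were still 201 (35.8 to 7959) and 196 (34.9 to 7756). Both genes passed in the fit (adjusted p = 2.47e-06 and 2.4e-05, limma), whose fold changes depend on the count added to such low values and are not given. Like *Epha6*, both had a CPM over 1 in all replicates of SGN groups only. They were therefore tested against HCs, and against glial cells below, only because of their SGN level. The 3 genes called at P14, *Epha5*, *Epha8* and *Epha10*, were 3 of 8, all higher in SGNs, against 23.1% of 17531 genes called in either direction and 10.9% called higher (7.01% higher when scaled by library size). Against the mean of the 5 SGN ages, 4 of 8 were higher than in HCs, *Epha7* (log2 2.61, SE 0.49, adjusted p = 0.000119) in addition, against 26.8% in either direction and 10.5% higher (7.59% when scaled by library size).

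Glial cells had the lowest EphA sum, 21.9, 14.1 and 9.03 TPM in replicates 1, 2 and 3, below every SGN and HC library. *Epha4* had 5.97, 2.18 and 1.82 TPM there and *Epha7* 2.69, 1.38 and 0.0644 TPM, both below all SGN libraries of the same age, P8. In SGNs at P8 *Epha4* was 8.21-fold higher (log2 3.04, SE 0.49, limma adjusted p = 5.19e-05) and *Epha7* 21.6-fold higher (log2 4.43, SE 0.87, adjusted p = 0.000361). Without glia replicate 1 the *Epha4* value was 3.67 and the *Epha7* value 5.64 on the log2 scale, and without glia replicate 3 the *Epha7* value was 3.02, so the size of the *Epha7* difference depended on single glial libraries. *Epha10* had 43, 2 and 1 counts in the glial libraries and *Epha8* 13, 0 and 0, so that nearly all these reads came from replicate 1, the library with the highest SGN marker sum. Whether SGN transcripts in that library account for them was not tested. *Epha10* was higher in SGNs at P8 by 5.36 (SE 0.94, adjusted p = 0.000118) with all libraries and by 6.65 (adjusted p = 0.000204) without glia replicate 1, and by 4.58 without glia replicate 3. *Epha8* was higher by 6.48 (SE 0.89, adjusted p = 8.78e-06), and by 7.84 without that library (adjusted p = 9.27e-06), 5.74 without glia replicate 2 and 5.82 without glia replicate 3.

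*Epha2* and *Epha5* had another pattern in glial cells. *Epha5* had 5.23, 2.93 and 4.77 TPM, overlapping with the 3.66 to 9.65 TPM of P8 SGNs, and its fitted difference was -0.05 (limma adjusted p = 0.913, 95% interval -0.78 to 0.67). *Epha2* had 5.94, 6.58 and 1.91 TPM, from 450, 316 and 84 counts, above the 0.317 to 0.793 TPM of P8 SGNs. It was 9.998-fold lower in P8 SGNs (log2 -3.32, SE 0.98, adjusted p = 0.00952). This call lies close to the threshold of 0.01 and was lost in 10 of 13 alternatives (log2 -2.59 without SGN P8 replicate 2), with adjusted p between 0.00321 and 0.0722 over all of them. Only the glial group had a CPM over 1 for *Epha2* in all replicates, so the gene was tested only because of its glial level. With no low-count filter, 5 EphA genes were called higher in P8 SGNs than in glial cells and 0 lower. The glial libraries also had 297 to 434 TPM of 8 connective tissue markers against 11.2 to 165 TPM in P8 SGNs, and the part of such cells in the *Epha2* level was not tested. *Epha6* had 11, 0 and 0 counts in glial cells, and its difference of 4.98 did not pass (adjusted p = 0.0119). In all, 4 of 8 genes were higher and 1 lower in P8 SGNs than in glial cells, against 20.9% of all genes called, 13.4% higher and 7.53% lower, and the median difference was 3.73 over the 8 genes and 0.22 over all genes. With sample quality weights, *Epha7* (adjusted p = 0.0132) and *Epha10* (adjusted p = 0.0159) missed the threshold as well.

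Against glial cells, the mean of the 5 SGN ages gave the same counts, 4 higher and 1 lower of 8, against 24.7% of all genes, 14.3% higher and 10.4% lower. *Epha2* was lower (log2 -3.51, SE 0.67, limma adjusted p = 0.000187) and *Epha4* higher by 2.74 (SE 0.47, adjusted p = 6.31e-05), or by 3.37 without glia replicate 1. Between HCs and glial cells, which share libraries with the comparisons above, 3 of 8 were called against 24.4% of all genes. *Epha4* was higher in HCs by 2.50 (SE 0.50, adjusted p = 0.00046), or by 3.13 without glia replicate 1. *Epha5* was lower in HCs (log2 -6.25, SE 0.90, adjusted p = 1.25e-05), as was *Epha2* (log2 -4.11, SE 1.13, adjusted p = 0.00543). Without HC replicate 2 these values were -7.05 and -3.08, and without HC replicate 3 they were -5.07 and -5.05. *Epha2* was called in only 4 of 13 alternatives and *Epha4* missed the threshold with sample quality weights (adjusted p = 0.0117). In these comparisons too, *Epha2* was tested only because of its glial level.

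**Figure D3:**
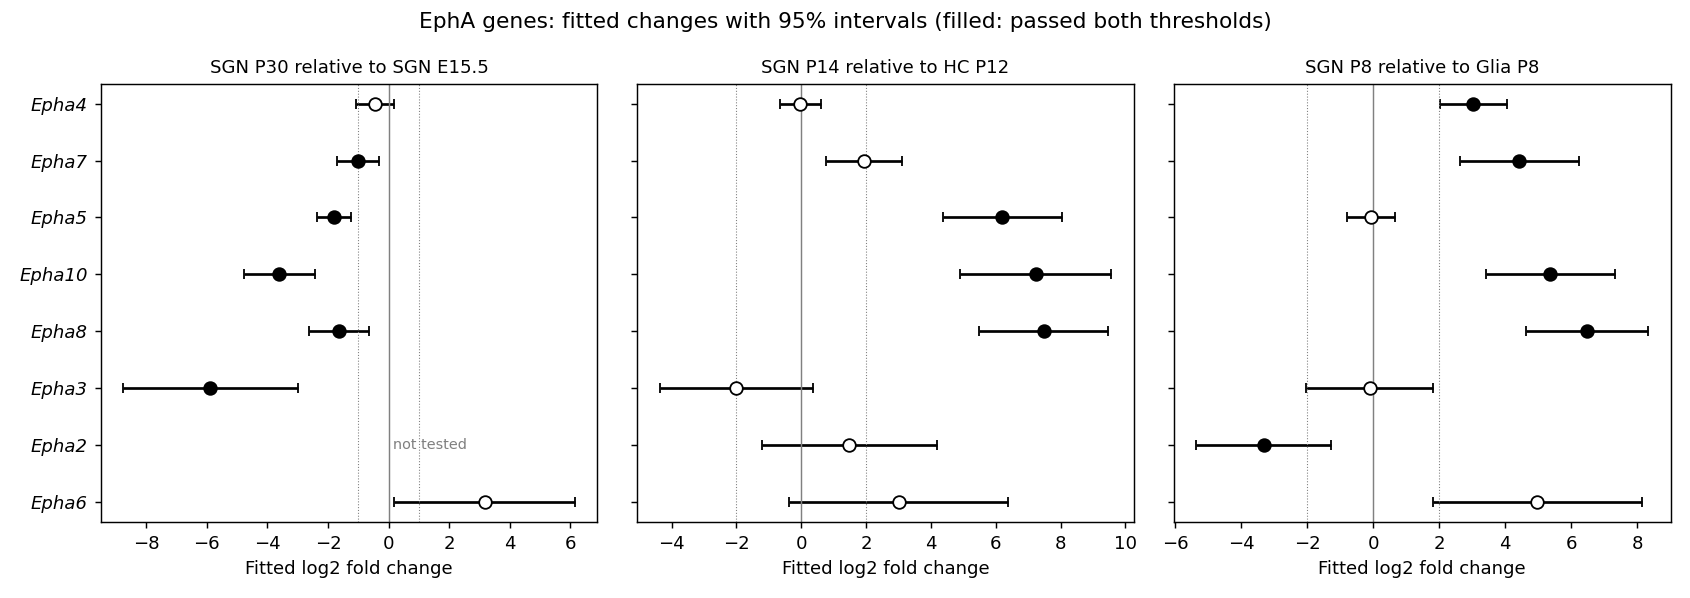
Fitted log2 fold change (horizontal axes) of each of the 8 EphA genes (vertical axis) between SGN P30 and E15.5, SGN P14 and P12 HCs, and SGN P8 and P8 glial cells, from limma-voom, with 95% intervals as bars. Filled points passed both thresholds, 2-fold and an adjusted p under 0.05 on the left and 4-fold and 0.01 in the other panels, and dotted lines mark the fold thresholds; *Epha2* was not tested on the left. For *Epha8* and *Epha10* against HCs, the fitted value rests on 1 count in HCs.

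The ephrin-A ligands that EphA receptors bind had their own patterns. *Efna5*, the ligand with the highest group mean, had 4.23, 12.97 and 3.99 TPM in SGNs at E15.5, 28.3, 24.3 and 25.9 TPM at P1 and 5.97, 2.25 and 1.19 TPM at P30. The P1 libraries lay above all other SGN libraries, and the level differed among ages (F test, limma adjusted p = 0.0074). *Efna5* had 14.9, 21.1 and 13.9 TPM in HCs. *Efna3* had 16.6, 5.14 and 17.2 TPM at E15.5 and 0.129, 0.0739 and 0.0780 TPM at P30, and it fell from E15.5 to P1 (log2 -2.00, SE 0.47, adjusted p = 0.0126) and over the span from E15.5 to P30 (log2 -6.56, SE 1.05, adjusted p = 0.000129).

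*Efna2* had 4.47, 3.02 and 7.43 TPM at E15.5, 4.75, 0 and 0.0446 TPM at P30, and 9.03, 10.6 and 5.28 TPM in glial cells. Its P30 level was held by replicate 1 alone, and its fall from E15.5 to P30 had a fitted log2 value of -4.21 (SE 1.44, limma adjusted p = 0.0273). *Efna2* was lower in P8 SGNs than in glial cells (log2 -3.87, adjusted p = 0.00627), whereas *Efna3*, with 2, 0 and 0 counts in glial cells, was higher (log2 4.67, adjusted p = 0.00206). *Efna1* had 2.30, 7.29 and 0.860 TPM in P8 SGNs, 7.95, 5.98 and 4.53 TPM in HCs and 2, 2 and 0 counts in glial cells, and was higher in P8 SGNs than in glial cells by 4.85 (adjusted p = 0.00226). *Efna4* stayed between 0 and 4.36 TPM and did not reach the minimum for a test.

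**Figure D4:**
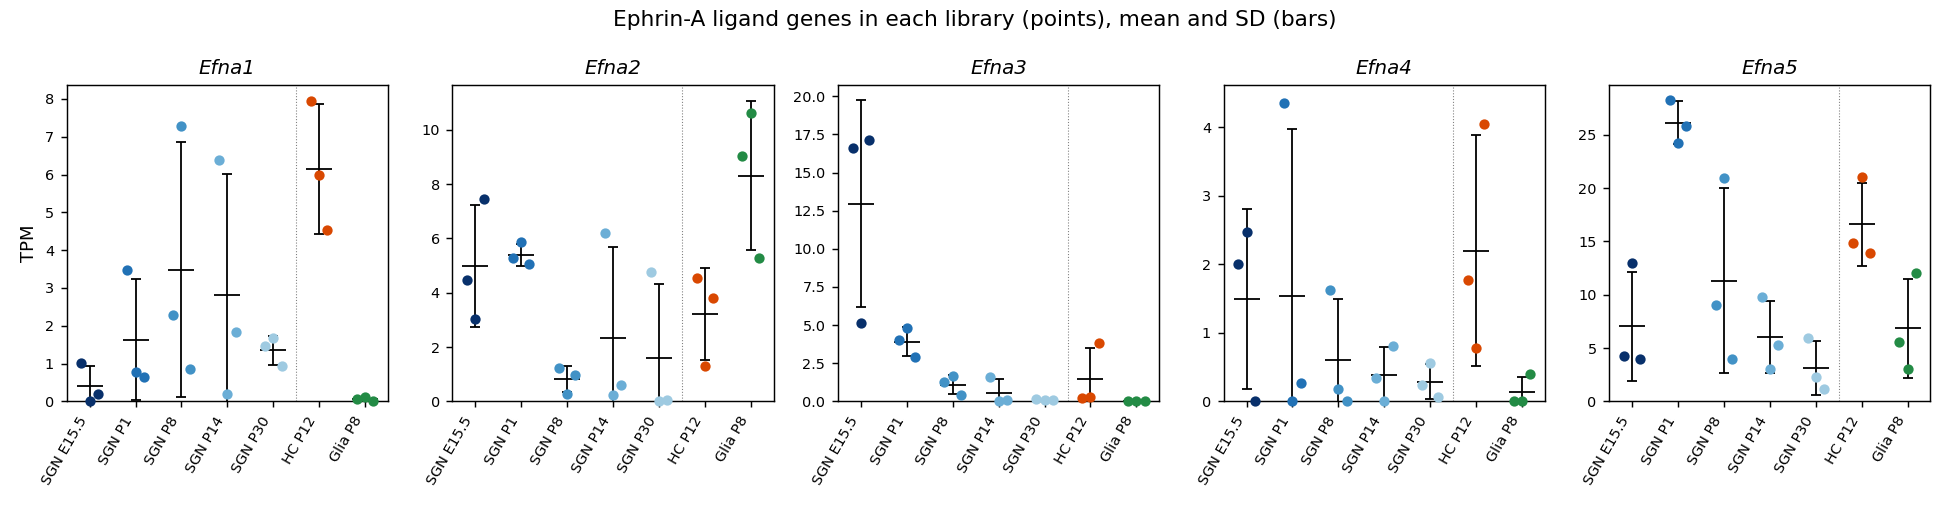
Level of each of the 5 ephrin-A ligand genes in TPM (vertical axes, each panel with its own linear scale from 0) in the 21 libraries of 7 groups (horizontal axes). Points are libraries, horizontal lines are means and bars are the SD (n = 3), cut off at 0. *Efna5* peaks in SGNs at P1 and is also present in HCs, *Efna3* is highest in SGNs at E15.5, and *Efna2* is highest on average in glial cells.

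Over a list of 44 other genes of ephrin signalling, among them ephrins, EphB receptors, exchange factors, adaptors, effectors and proteases, 43 were tested. From E15.5 to P30, 14 fell and 2 rose, against 34.6% of all genes called in either direction and 16.2% called lower (26.3% lower when scaled by library size). The median difference was -0.53 over the list, -1.62 over the EphA genes and -0.01 over all genes. The fallers included 4 of 5 EphB receptors and 2 of 3 ephrin-B ligands, and 0 of 6 effectors passed both thresholds, although *Rock1* (log2 -0.79, adjusted p = 0.0386) and *Rock2* (log2 0.76, adjusted p = 0.0108), the kinases under RhoA, named after their values were seen, passed on p alone. The largest falls outside the ephrin-A ligands were those of *Ephb6*, a receptor without kinase activity (log2 -4.54, SE 0.77, limma adjusted p = 0.000209), and of the ligand *Efnb1* (log2 -4.40, SE 0.99, adjusted p = 0.00213). The genes that rose were *Acp1*, a phosphatase that acts on Eph receptors (log2 1.27, SE 0.35, adjusted p = 0.00787), and *Cdk5*, a neuronal kinase that acts downstream of EphA4 (log2 1.08, SE 0.33, adjusted p = 0.0142). By single steps, 3 of 43 fell from E15.5 to P1 and 2 of 43 from P1 to P8, where 8.26% and 7.44% of all genes were called. From P8 to P14 none of the list was called by limma (6 at an unadjusted p under 0.05), against 0.536% of all genes, and from P14 to P30 none (4 at an unadjusted p under 0.05), against 0.0596%. In SGNs at P14, 7 of the 43 were higher and 1 lower than in HCs, where 10.9% of all genes were higher and 23.1% called in either direction. At P8, 8 of the 43 were higher and 4 lower than in glial cells, where 13.4% of all genes were higher and 7.53% lower, with 4 of the 9 exchange factors and GTPase activating proteins among the higher ones.

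The genes whose levels over the 21 libraries were most like those of the 4 most abundant EphA genes were named from 11446 expressed genes, by Pearson's r of log2(TPM + 1). The points share their libraries and fall into 7 groups, so these values are a description. For *Epha10* they were *Ptpro* (r = 0.97), *Dcx* (0.969) and *Scn3a* (0.969), the phosphatase *Ptpro* being known to act on Eph receptors and *Dcx* being a marker of young neurons. For *Epha4* they included *Mmp24* (0.962) and *Trim62* (0.958), for *Epha5* *Tubb5* (0.937), *Dchs1* (0.930) and *Map7d1* (0.929), and for *Epha7* *Sbk1*, *Astn1* and *Dync1i2* (each 0.949).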

How the data were processed

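Total RNA of picked or sorted cells was amplified with Ovation RNA-Seq V2 and sequenced paired-end by the authors, who aligned the reads with STAR 2.4.0i to mm10 and counted them per gene with featureCounts on GENCODE vM15. The deposited table held these raw counts with gene lengths, and settings for strand, multiply mapped reads and pairs were not given in the sources used here. Symbols came from GENCODE vM21 and matched 52403 of 52550 gene identifiers. From the counts, TPM and CPM were computed with Python 3.11.15. Differences were tested with limma 3.58.1 voom on TMM-normalized counts (edgeR 4.0.16, R 4.3.3), adjusted by Benjamini-Hochberg over all genes tested. The age fit used 15 SGN libraries and 15113 genes with a CPM over 1 in all replicates of an age, and the cell fit used 21 libraries and 17531 genes selected likewise. Calls needed 2-fold and an adjusted p under 0.05 between ages, and 4-fold and 0.01 between cell types, and comparisons are written as later minus earlier age or as the group named first minus the other. The limma fits were also run on simulated counts for the comparisons E15.5 to P30 and SGN P14 against HCs, with the outcome not given here. Alternatives were library size scaling, no low-count filter, edgeR's quasi-likelihood test, DESeq2 1.42.0, sample quality weights, a replicate block, fits of only the groups compared and the omission of each library. The 8 genes, the ephrin list and the markers were chosen with earlier results of these data known. All 8 genes, the 5 ephrin-A ligands, the 2 largest rises and 2 largest falls of the list from E15.5 to P30, and 3 genes most like each EphA gene with a group mean of at least 10 TPM were named, apart from 1 gene that is not reported here.

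Replicate numbers were checked for pairing by the correlation of deviations from group means. All 3 values were over 0.1 for P14 with P30 (0.393, 0.244 and 0.104) and for P8 with P30, and for no other 2 groups. For replicate 1 alone, the value was 0.262 to 0.396 between any 2 of the postnatal SGN ages, so a link between those libraries is possible. In the fit with the replicate block, no EphA gene was called from P14 to P30 either. Where a gene had 1 count in HCs, the ratio of pooled CPM was given with an exact 95% interval.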

Additional observations from a re-analysis of the deposited data

How the results depend on the processing

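There were 27 calls of an EphA gene between groups, with F test calls not counted. Examined under 473 settings in all, 433 kept call and direction, 40 lost the call in the same direction and 0 changed sign. From P1 to P8, 1 gene in place of 2 was called with no low-count filter, by edgeR, by DESeq2, with the replicate block and without SGN P1 replicate 1 and SGN P14 replicate 1 (left out together, a choice made after seeing the data), and 1 to 3 with single libraries left out. Leaving out single libraries gave 0 to 1 calls from E15.5 to P1, the 1 without SGN E15.5 replicate 2, and 3 to 6 from E15.5 to P30, the 3 without SGN P30 replicate 1. DESeq2 called 1 gene from P8 to P14. With sample quality weights, 3 genes in place of 5 differed between the SGN mean and glial cells and 2 in place of 5 between P8 SGNs and glial cells. The cause was not tested. The replicate block added 1 call between the SGN mean and glial cells (6 in place of 5, *Epha6* in addition). A count of 6 was also reached there with no low-count filter, by DESeq2 and with some single libraries left out. From P1 to P8 the block lost the *Epha8* call, and in the other comparisons it did not change the number of EphA genes called.

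Values near 0 changed sign. The *Epha4* difference between SGN P14 and HCs was 0.0413 by edgeR and 0.0433 with sample quality weights, and -0.36 to 0.15 with single libraries left out. The *Epha5* difference between P8 SGNs and glial cells was 0.0682 without the low-count filter, 0.0324 in the fit of only the groups compared, and -0.27 to 0.11 with single libraries left out. Library size scaling moved the median log2 difference of all genes from -0.01 to -0.49 between E15.5 and P30, and from 0.02 to -0.54 between the SGN mean and HCs, with 5 and 4 EphA genes called, as with TMM. Scaling TPM by TMM moved 4 of 56 group means by more than 1 SD. The low genes *Epha2*, *Epha3* and *Epha6* had wide intervals, so differences of moderate size in them could have been missed. The parts of depth and of spread between libraries in these intervals were not tested.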
